A study of Mus musculus with 25 samples.

Results

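The genes for the mitochondrial protein translocases and for the SLC25 solute carriers were followed in RNA-seq of hippocampal neuronal nuclei. Members were all genes of the 3 expression tables whose symbol begins with Timm or Tomm and a digit, or is Slc25a followed by a number, with 2 genes left out by the rule (Slc25a18 and Slc25a34). This gave 70 of 24411 genes, of which 24 are translocase genes, 45 are carrier genes and 1, Tomm6os, is an antisense RNA that shares the prefix. Tomm34, a cytosolic cochaperone that shares the TOM name, is counted with the translocase genes. The rule uses symbols only and no measured value.

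Nuclei positive for the neuronal antigen NeuN were sorted from hippocampi of male C57BL/6 mice. In the aging experiment, 3 libraries of young (3 months) and 2 libraries of aged (18 months) wild-type mice were compared. In the overexpression experiment, young mice (3 months) had received virus carrying Ftl1 (7 libraries labelled Ftl1 OE) or GFP (5 control libraries) behind the neuron-specific synapsin-1 promoter, injected into CA1 and the dentate gyrus. The sort used a DNA stain and NeuN, with no gate on the virus named, so that nuclei without virus could be in every library. In the knockdown experiment, aged mice (18 months) had received virus with hairpins that target Ftl1 (4 libraries labelled Ftl1 KD) or luciferase (4 control libraries) at the same sites. Ftl1 is the light chain of the iron store ferritin. For the injected mice no label says that every library came from its own animal, and p-values therefore measure the spread between libraries, which may be technical.

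Nearly all mitochondrial proteins are encoded in the nucleus and cross the outer membrane through the TOM complex, whose pore is Tomm40, whose receptors are Tomm20, Tomm22 and Tomm70a and whose small subunits are Tomm5, Tomm6 and Tomm7. The TIM23 complex then passes proteins with a presequence into the matrix, while small TIM chaperones ferry hydrophobic proteins to the TIM22 complex, which inserts them into the inner membrane. The SLC25 carriers are the main clients of that route: they exchange ADP for ATP, take up phosphate and move citrate, malate, amino acids, iron and cofactors across the inner membrane, and neurons depend on them for oxidative phosphorylation.

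Depth differed widely, with 7969282 to 9537872 reads per library in the aging, 9943996 to 17034325 in the overexpression and 48902 to 358560 in the knockdown experiment. Neuronal markers were present in every experiment, with summed normalized counts of 8 markers of 36040 to 46820 in young and 45610 to 46090 in aged libraries. In the overexpression experiment these sums were 56910 to 81010 in controls and 56230 to 71760 in labelled libraries. Glial RNA was present there too. In the same order, 8 oligodendrocyte markers summed to 22670 to 47720 and 26470 to 44060. The sums of 8 astrocyte markers were 12330 to 45770 and 20000 to 60680. Levels of Ftl1, the targeted gene, did not follow the labels in either virus experiment. They overlapped between groups in the first and were higher under the knockdown label in the second. Ftl1 had normalized counts of 4737 to 7663 in the libraries labelled Ftl1 OE and of 4580 to 28310 in their controls. The value of 28310 was that of control library 3, and the other controls had 4580 to 9953. In the knockdown experiment Ftl1 had 106 to 140 in the libraries labelled Ftl1 KD against 24.3 to 56.2 in their controls. Directions below are therefore those of the labelled libraries. In the aging experiment Ftl1 had 4247 and 4272 in the aged and 1685 to 2141 in the young libraries. Control libraries 3 and 5 of the overexpression experiment had the lowest Malat1, a nuclear-retained RNA, at 23360 and 32200. It was 76580 to 185200 in the other controls and 44900 to 218100 in the libraries labelled Ftl1 OE. Genes detected were 12281 and 13495 in control libraries 3 and 5 and 13924 to 15188 in the other controls. The libraries labelled Ftl1 OE had 13455 to 15602, so that on this measure control library 5 did not stand apart.

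Promoters were examined for members named in the virus experiments. RefSeq windows (GRCm38.p6) of 250 bases before the start were found for 56 of 70 members. Shown are the parts that lie in no annotated exon for 2 of the 3 carriers called in the knockdown experiment and for Timm13, one of the translocases with the lowest p in the overexpression experiment. Capitals mark a match to the letters GCGCNTGCG or their reverse complement CGCANGCGC, the core of the site of the nuclear respiratory factor NRF1.
Slc25a3 (chr10:91124060-91124217, minus strand): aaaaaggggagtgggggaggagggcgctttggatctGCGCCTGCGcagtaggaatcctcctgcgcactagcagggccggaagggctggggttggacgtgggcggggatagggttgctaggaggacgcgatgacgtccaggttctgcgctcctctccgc
Slc25a5 (chrX:36795347-36795596, plus strand): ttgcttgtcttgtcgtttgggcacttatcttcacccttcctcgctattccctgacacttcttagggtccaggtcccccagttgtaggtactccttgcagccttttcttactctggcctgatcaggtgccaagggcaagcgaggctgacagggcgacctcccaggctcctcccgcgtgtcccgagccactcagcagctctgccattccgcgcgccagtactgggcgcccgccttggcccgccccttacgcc
Timm13 (chr10:80900970-80901202, minus strand): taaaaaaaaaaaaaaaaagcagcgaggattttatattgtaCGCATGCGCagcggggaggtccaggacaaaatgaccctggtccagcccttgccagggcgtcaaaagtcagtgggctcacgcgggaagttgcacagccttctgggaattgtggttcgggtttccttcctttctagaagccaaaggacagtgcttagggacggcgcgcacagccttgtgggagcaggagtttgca
These letters stood in the windows of 2 of 21 translocase genes (9.52%) and 2 of 34 carrier genes (5.88%), beside 5.88% of 27025 genes in all. The ETS core CCGGAAGT (or ACTTCCGG) was found in 3 translocase genes (14.3%), 1 carrier gene (2.94%) and 3.23% of all genes, and the core of the estrogen-related receptor site, AAGGTCA (or TGACCTT), in 1 translocase gene (4.76%), 0 carrier genes and 4.7% of all genes. The YY1 core AAGATGGCG (or CGCCATCTT) was found in 0 genes of either class and in 0.71% of all genes. No member held 2 of these motifs, and a match is a description of the sequence only.

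In young neuronal nuclei the carriers of the ATP cycle led both classes (normalized count per kb of the principal transcript, mean ± SD, n = 3). Slc25a3, the phosphate carrier, had 3425 ± 446 per kb, Slc25a5, the broadly expressed ADP/ATP carrier, 1952 ± 540 per kb, and Slc25a4, the ADP/ATP carrier of heart, muscle and brain, 1750 ± 337 per kb. The last pair overlapped in their libraries, and Slc25a3 stood above both. Among translocases, Timm23, the presequence channel, had 822 ± 46.8 per kb, Tomm40 554 ± 111 per kb and Tomm5 531 ± 42.6 per kb, and the last pair did not differ beyond their spread. Slc25a3, Slc25a4 and Slc25a5 together took 37.1% to 43.1% of all carrier reads in the young libraries. At the other end, Slc25a31, the ADP/ATP carrier of testis, was at 0 in all 5 libraries of the aging experiment, and so were Slc25a48 and Slc25a54, named here because of their value. Slc25a4 and Slc25a5 are close relatives, so that reads shared between them were divided by estimate.

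**Figure D1:**
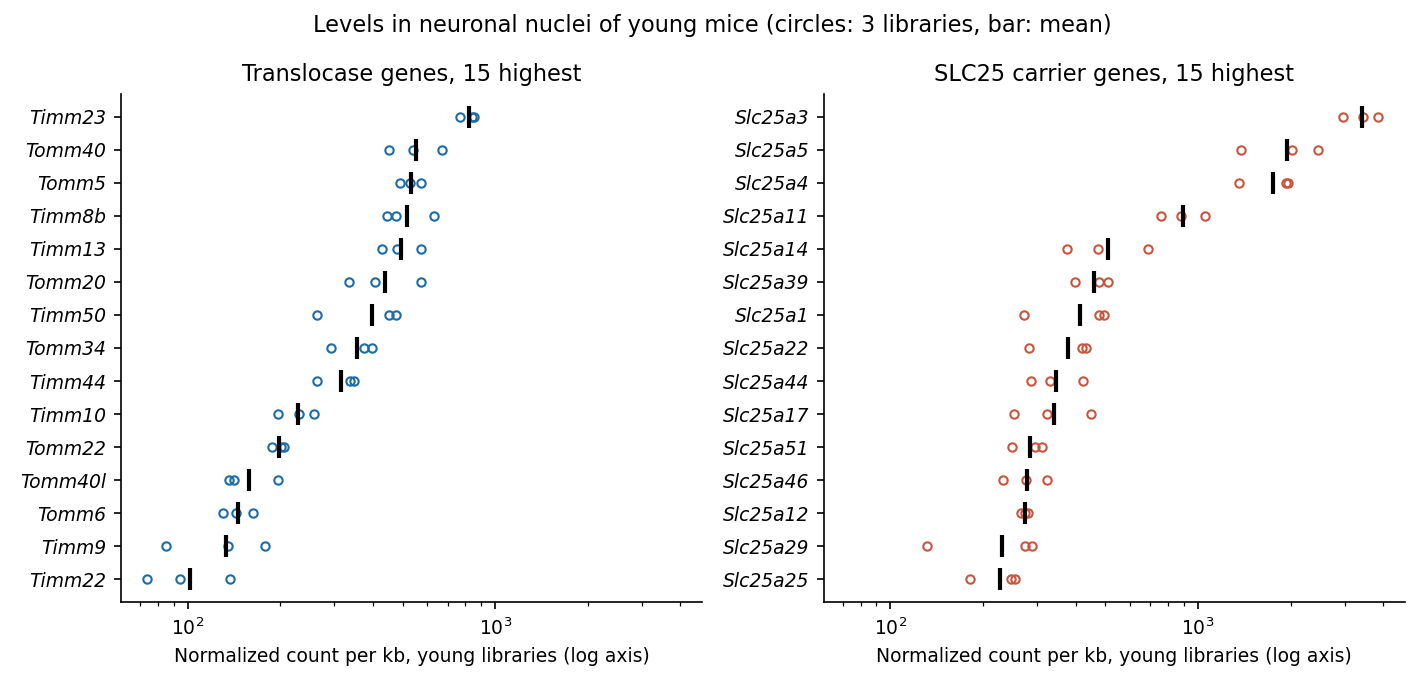
Normalized count per kb of transcript in the 3 young libraries (circles; the bar is the mean) for the 15 highest translocase genes (left) and carrier genes (right), on a log axis. The highest carrier, Slc25a3 (mean 3425 per kb), sits above the highest translocase, Timm23 (mean 822 per kb).

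The aging comparison asked which members differ between young and aged neuronal nuclei. Timm10 had more counts and Slc25a51, Slc25a46 and Slc25a11 had fewer in the aged libraries at an unadjusted p of 0.05, but 0 of 59 members tested passed the threshold (limma, adjusted p of 0.05 and absolute log2 fold change of 0.5). Over all genes tested, 0% of 13712 passed. In these pooled nuclei, fewer nuclei of a type and less RNA per nucleus cannot be told apart. At an unadjusted p of 0.05, 1 member was higher (2.9% of all genes tested) and 3 were lower (5.04% of all genes). DESeq2 on the recovered reads called 138 genes, among them Slc25a51, and edgeR 0.

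The median log2 fold change was 0.16 for 22 translocases tested, -0.18 for 36 carriers tested and -0.03 for all genes tested. Of the translocases, 16 had a positive and 6 a negative value, and the groups did not overlap for 6, all of them higher with age. Of the carriers, 15 had a positive and 21 a negative value, and the groups did not overlap for 2 that were higher and 5 that were lower. Over all genes tested, 12.2% were higher and 12.5% lower without overlap. The two-sided exact permutation test of 3 against 2 libraries, as run here, cannot go below 0.2. The carriers' median rested on the method: with edgeR it was 0.02 and with DESeq2 0.03, and it was 0.06 without young library 3.

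Among small TOM subunits, Tomm6 had normalized counts of 97.5, 122 and 107 in the young and 191 and 187 in the aged libraries (log2 fold change 0.80, SE 0.49, adjusted p = 0.689). Tomm7 had 67.4, 104 and 105 in young and 153 and 147 in aged libraries (log2 fold change 0.73, SE 0.55, adjusted p = 0.741). Tomm5 had 367, 313 and 338 against 414 and 496. For all 3 subunits both aged libraries were above every young library, with an exact p of 0.2. The receptors and the pore overlapped between ages. Tomm20 had 1646, 2819 and 1998 against 2003 and 2574. Tomm22 had 295, 322 and 316 against 244 and 508. Tomm70a had 496, 302 and 410 against 130 and 469. Aged library 2 was the lower of the aged pair for all 3 receptors. Tomm40 had 745, 886 and 1106 against 940 and 890.

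Of the small TIM chaperones, all 5 tested had a positive value, between 0.03 and 1.01, and Timm10 had the lowest p. Its normalized counts were 136, 177 and 159 in young and 460 and 218 in aged libraries (log2 fold change 1.01, SE 0.46, adjusted p = 0.624), so that the size rested mainly on aged library 2. Timm13 had 524, 701 and 588 against 815 and 782. Timm23 had 901, 1004 and 986 against 832 and 1158, and Timm17b, its paired channel subunit, 67.4, 93.3 and 79.9 against 38.5 and 86.4, with overlap in both.

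Of the carriers, those with the lowest p all had fewer counts in aged libraries. Slc25a51, the mitochondrial NAD+ carrier, had 1381, 1103 and 1311 in young and 547 and 700 in aged libraries (log2 fold change -1.02, SE 0.29, adjusted p = 0.441; DESeq2 adjusted p = 0.0341). Slc25a46, an outer membrane protein that acts in mitochondrial dynamics, had 1409, 1018 and 1208 against 545 and 662 (log2 fold change -0.999, SE 0.29, adjusted p = 0.461). Slc25a11, the oxoglutarate and malate carrier, had 1293, 1510 and 1804 against 642 and 1047 (log2 fold change -0.89, SE 0.31, adjusted p = 0.533). In all 3 genes both aged libraries lay below every young library, with an exact p of 0.2 each.

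Slc25a23, a calcium-gated ATP-Mg and phosphate carrier, had 565, 593 and 433 in young and 1045 and 656 in aged libraries (log2 fold change 0.66, SE 0.33, adjusted p = 0.648). Slc25a29, a carrier of basic amino acids, had 259, 540 and 571 against 401 and 1234, and its positive value (0.71) turned to -0.10 without aged library 3. Slc25a15, the ornithine carrier, had 108, 31.8 and 29.3 against 0 and 32.2. The carriers of the ATP cycle overlapped between ages. Slc25a3 had 4784, 5559 and 6220 against 4256 and 5477. Slc25a4 had 2622, 3766 and 3720 against 3577 and 4538. Slc25a5 had 1715, 2501 and 3047 against 905 and 2690, with aged library 2 the lowest of all. The mitoferrins, which bring iron into mitochondria, also overlapped, with 616, 324 and 338 against 262 and 467 for Slc25a37 and 269, 269 and 287 against 566 and 200 for Slc25a28. Slc25a39, the glutathione carrier, had 802, 672 and 856 against 791.6 and 971.

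Length of the transcript moved with these values. All 13 translocases tested with up to 2 kb of transcript had a positive value in aged libraries (median 0.38), beside 56.3% of 3302 genes of that length. Of 9 longer translocases, 3 had a positive value (median -0.14), beside 45.55% of longer genes. Without aged library 3, 9 of the 13 had a positive value. Spearman's correlation of length and log2 fold change, across genes that share libraries, was -0.65 for translocases, -0.14 for carriers and -0.07 for all genes. Ribosomal RNA differed as well, while the sums of glial markers overlapped. Rn45s took 5.92% and 6.42% of reads in aged and 2.62% to 4% in young libraries. Of 8 oligodendrocyte and 8 astrocyte markers, 7 each had a negative value, with 0 called and overlapping sums (3084 to 6800 in young against 3173 to 4412 in aged libraries, and 5603 to 8402 against 4313 to 7173), and none was at 0 throughout. Of 9 microglial markers, 5 had a positive and 4 a negative value, with sums of 501 to 873 in young and 434 to 1115 in aged libraries. The part of length, ribosomal RNA and glial markers in these values was not tested.

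**Figure D2:**
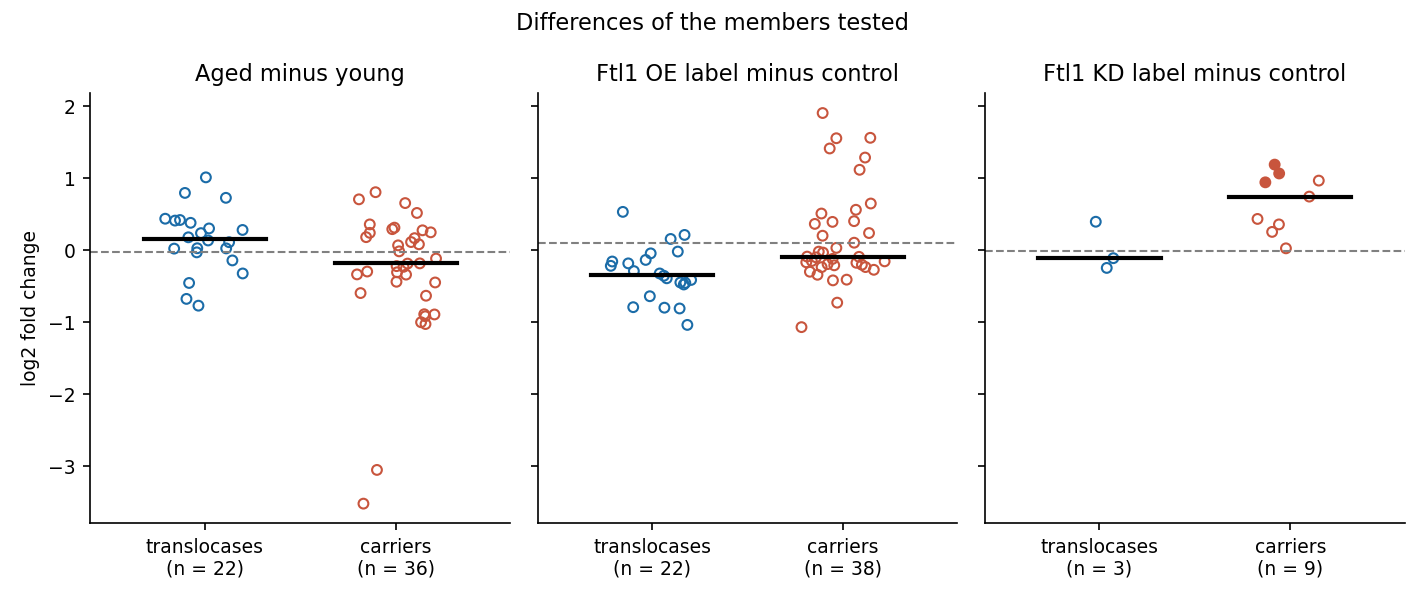
Log2 fold change of every member tested, for translocases (blue) and carriers (red) in the 3 comparisons; black bars are class medians, dashed lines the median of all genes tested, and filled circles passed the threshold. Filled circles occur for 3 carriers in the knockdown comparison, and translocase medians lie at 0.16, -0.34 and -0.11.

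The overexpression comparison asked what excess Ftl1 in young neurons changes. Most translocases had fewer counts in the libraries labelled Ftl1 OE, led by Tomm6, Tomm7, Timm17b and Timm13, while carriers were divided. In this comparison 0 of 61 members tested passed the threshold (limma), and 0% of 14099 genes did. At an unadjusted p of 0.05, 0 members were higher (3.6% of all genes tested) and 5 were lower (3.66% of all genes), and all 5 were translocases. DESeq2 on the recovered reads called 60 genes, among them Tomm6, and edgeR 0.

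The median log2 fold change was -0.34 for 22 translocases, -0.09 for 38 carriers and 0.10 for all genes tested. Of the translocases, 3 had a positive and 19 a negative value, and of the carriers 16 and 22, beside 42.6% negative values over all genes. For 0 members did the groups not overlap, beside 0.17% of genes that were higher and 0.411% that were lower without overlap. In the libraries with 15096 to 15602 genes detected (2 controls and 5 labelled Ftl1 OE, an alternative chosen after seeing the data), 15 of 22 translocases had a negative value, their median was -0.11, that of carriers was -0.01 and that of all genes -0.01. Without control library 3 the medians were -0.18 for translocases, 0.02 for carriers and 0.02 for all genes. The sign of the carriers' median thus rested on that library, and the median of all genes moved as well, from 0.10.

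Tomm6, which helps assemble the TOM complex, had normalized counts of 682, 516, 1140, 853 and 1184 in the control libraries 1 to 5, and between 311 and 557 with a median of 423 in the libraries labelled Ftl1 OE. Its log2 fold change was -1.04 (SE 0.27, limma adjusted p = 0.499, DESeq2 adjusted p = 0.0408, exact permutation p = 0.00758 unadjusted). Only control library 2 lay within the range of the labelled libraries. The exons of Tomm6 overlap those of Tomm6os, over 219 bases on the opposite strand, and of Usp49, over 93 bases. The sources conflict on whether the libraries keep the strand, so that these reads cannot be told apart. On the same strand they overlap those of Gm21981, a protein-coding gene absent from the expression tables, over 859 bases. Reads of those bases cannot be told apart even where the strand is kept. Tomm6os itself had medians of 58.1 in controls and 65.3 in labelled libraries, and its highest control library stood at 365.

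Tomm7, another small TOM subunit, had 683, 322, 1420, 551 and 944 in controls and 300 to 496 with a median of 425 in labelled libraries (log2 fold change -0.81, SE 0.32, adjusted p = 0.598, unadjusted exact p = 0.0303). Timm17b, a subunit of the TIM23 channel, had 616, 406, 626, 463 and 910 against 230 to 529 with a median of 359 (log2 fold change -0.80, SE 0.28, adjusted p = 0.562, unadjusted exact p = 0.0152). Timm13, a small TIM chaperone whose promoter is shown above, had 2842, 2330, 7399, 3599 and 6696 against 1827 to 3087 with a median of 2580 (log2 fold change -0.79, SE 0.28, adjusted p = 0.549, unadjusted exact p = 0.0354). For Timm13, control libraries 3 and 5 were far above the other controls, and the same 2 libraries were highest for Tomm6, Tomm7 and Timm17b. In these better-detected libraries, the log2 fold changes were -0.86 for Tomm6, -0.65 for Tomm7, -0.58 for Timm17b and -0.52 for Timm13, with adjusted p of at least 0.909.

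**Figure D3:**
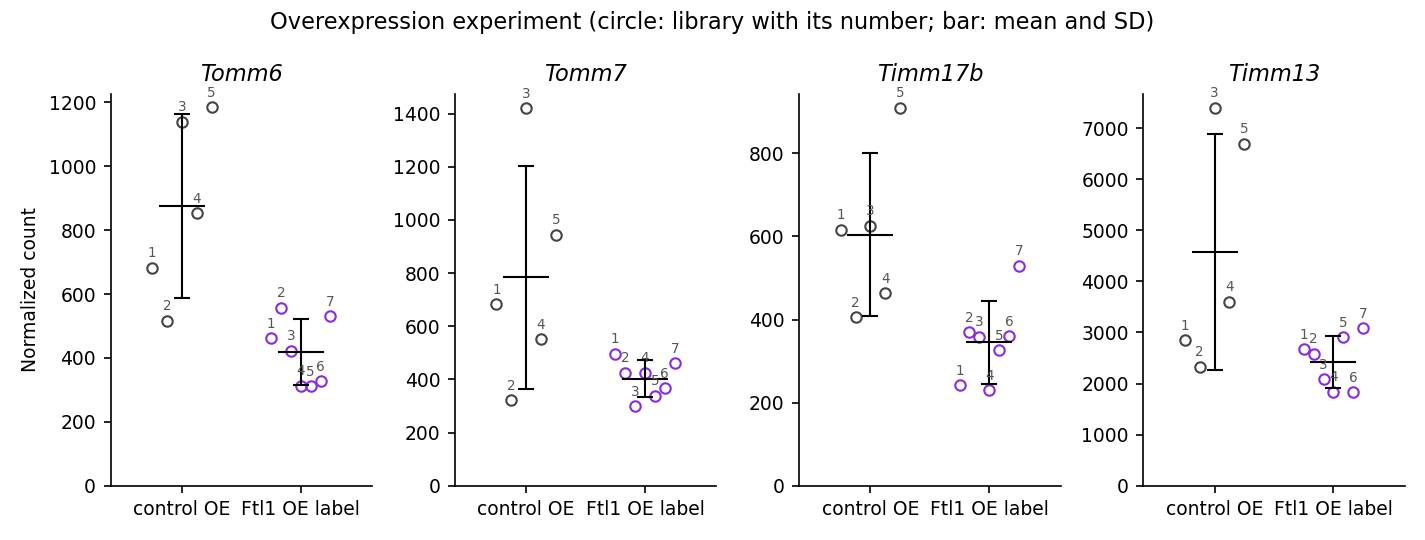
Normalized counts of the 4 named translocases with the lowest p in each library of the overexpression experiment (circles, with the library number), with mean and SD. Control libraries 3 and 5 are the highest for Timm13, at 7399 and 6696, and libraries labelled Ftl1 OE lie between 1827 and 3087.

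The other TOM and TIM subunits had smaller differences. Tomm22 had a log2 fold change of -0.45 (SE 0.23), Tomm40 of -0.32 (SE 0.19), Tomm5 of -0.39 (SE 0.31), Timm23 of -0.29 (SE 0.19) and Tomm20 of -0.04 (SE 0.20), and Tomm70a, the receptor for carriers, had 0.21 (SE 0.31). All of these overlapped between groups.

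Of the carriers named for a positive value, Slc25a37, Slc25a46 and Slc25a17 each had their lowest level in control library 3. Slc25a37, the mitoferrin of red cell precursors, had 218, 166, 8.11, 212 and 145 in controls and 180 to 498 with a median of 286 in labelled libraries (log2 fold change 1.41, SE 0.68, adjusted p = 0.672). Slc25a46 had 857, 1440, 52.7, 694 and 158 in controls and 537 to 1307 with a median of 1052 (log2 fold change 1.29, SE 0.62, adjusted p = 0.672). Slc25a15 had 155, 0, 87.9, 143 and 46.4 against 57 to 244 with a median of 116. Slc25a17, which carries cofactors into peroxisomes, had 896, 1028, 333, 876 and 500 against 740 to 1123 with a median of 807. In these better-detected libraries the log2 fold changes were 0.25 for Slc25a37, 0.19 for Slc25a46, 0.09 for Slc25a17 and -0.59 for Slc25a15. The other mitoferrin, Slc25a28, had a log2 fold change of 0.10 (SE 0.26), and Slc25a39 of -0.34 (SE 0.28).

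The carriers of the ATP cycle overlapped between groups, with log2 fold changes of -0.20 (SE 0.20) for Slc25a3, -0.15 (SE 0.21) for Slc25a4 and -0.15 (SE 0.16) for Slc25a5. Translocase reads per 100 carrier reads, a ratio within a library that does not depend on scaling, were 50.6, 50.8, 66.1, 50.5 and 71.5 in controls and 45.6 to 53.4 in labelled libraries. Control libraries 3 and 5 were the high ones, and the other 3 controls lay within the range of the labelled libraries. Of the marker lists of other cells, 0 genes were called. Microglial markers had 3 positive and 6 negative values (median -1.13). Their summed normalized count was 2981 to 7111 in controls and 1609 to 3193 in labelled libraries, which overlap, with none at 0 throughout. Astrocyte markers had 6 positive and 2 negative values (median 0.43) and markers of newborn neurons 4 positive values of 4 (median 0.82), with overlapping sums. Their part in the members' values was not tested. In this experiment short genes were low as a whole, with 63.3% of 3540 genes of up to 2 kb at a negative value, beside 12 of 13 translocases of that length and 11 of 16 carriers.

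**Figure D4:**
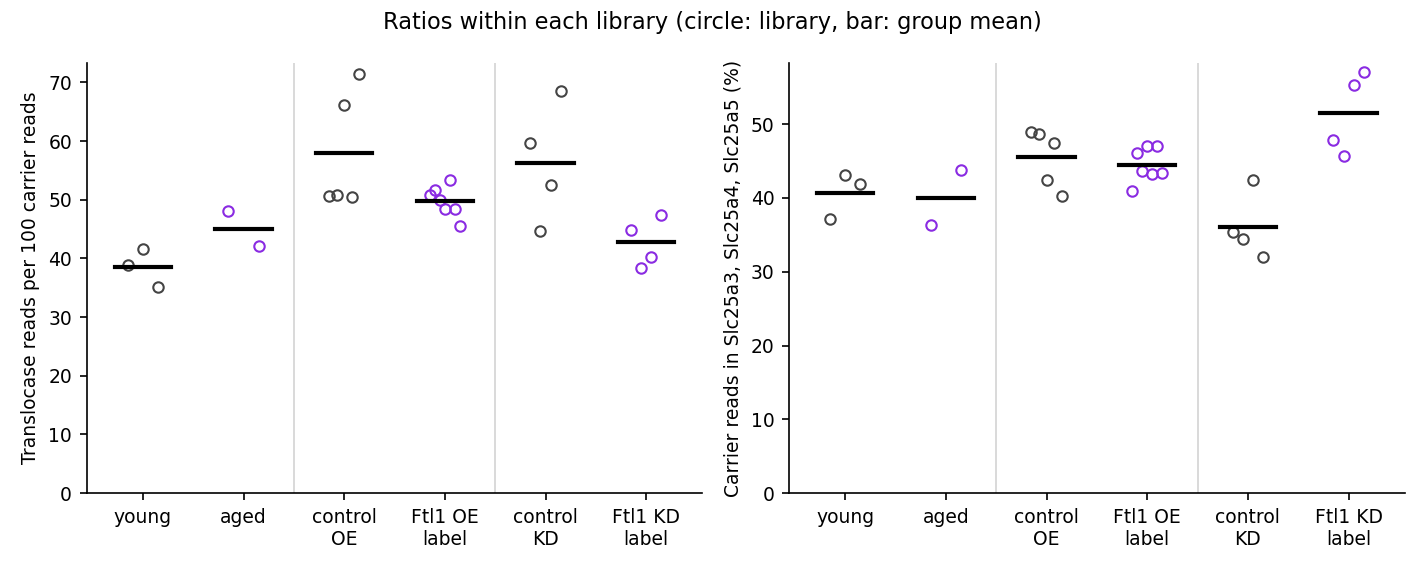
Translocase reads per 100 carrier reads (left) and the percentage of carrier reads in Slc25a3, Slc25a4 and Slc25a5 (right) in each library (circles), with group means (bars). The percentage lies at 31.9 to 42.5 in knockdown controls and at 45.6 to 57.0 in the libraries labelled Ftl1 KD.

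The knockdown comparison asked what less Ftl1 in aged neurons changes. The carriers of the ATP cycle, Slc25a3, Slc25a4 and Slc25a5, had log2 fold changes of 0.94 to 1.19 in the libraries labelled Ftl1 KD. They were 3 of 12 members tested that passed the threshold (limma), which is 25% of them beside 24.2% of 1460 genes tested, a share near the background. All 3 were higher, as were 10.5% of all genes tested, while 0 members were lower, beside 13.7% of genes. The groups did not overlap for these 3 members, all higher (11.8% of all genes), and for 0 in the other direction (11.9% of all genes). Over all genes 154 were higher and 200 lower, a split that turned to 197 and 161 when libraries were centred on their median, which moved the median of all genes from -0.01 to 0.10; the 3 carriers passed under this scaling too, with Slc25a1. With a replicate block in the fit, Slc25a3 alone of the members stayed past the threshold. The knockdown libraries were shallow, so that 58 of 70 members did not reach a mean normalized count of 10, and 10 of those had no read at all.

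Slc25a3, which brings in the phosphate for ATP synthesis and whose promoter is shown above, had normalized counts of 37.8, 44.8, 35.6 and 22.2 in control libraries 1, 2, 3 and 5, and of 65.2, 72.2, 63.8 and 91.1 in libraries 1, 3, 4 and 5 labelled Ftl1 KD (35.1 ± 9.46 against 73.1 ± 12.6, SD, n = 4 each). Its log2 fold change was 1.07 (SE 0.25, adjusted p = 0.00334). Slc25a5 had 9.44, 16.1, 20.6 and 11.7 against 30.7, 27.1, 43.7 and 32.3 (log2 fold change 1.19, SE 0.31, adjusted p = 0.00656). Slc25a4 had 27.4, 23.8, 54.3 and 29.7 against 55.6, 55.9, 72.9 and 67.6 (log2 fold change 0.94, SE 0.27, adjusted p = 0.011). The exact permutation p was 0.0286 for each, the smallest that 4 against 4 libraries can give. Behind these values stood 10 to 40 reads of Slc25a5 in controls and 22 to 32 in labelled libraries, and 19 to 111 and 35 to 80 reads of Slc25a3. Control library 3 was the highest control for Slc25a4 and Slc25a5.

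**Figure D5:**
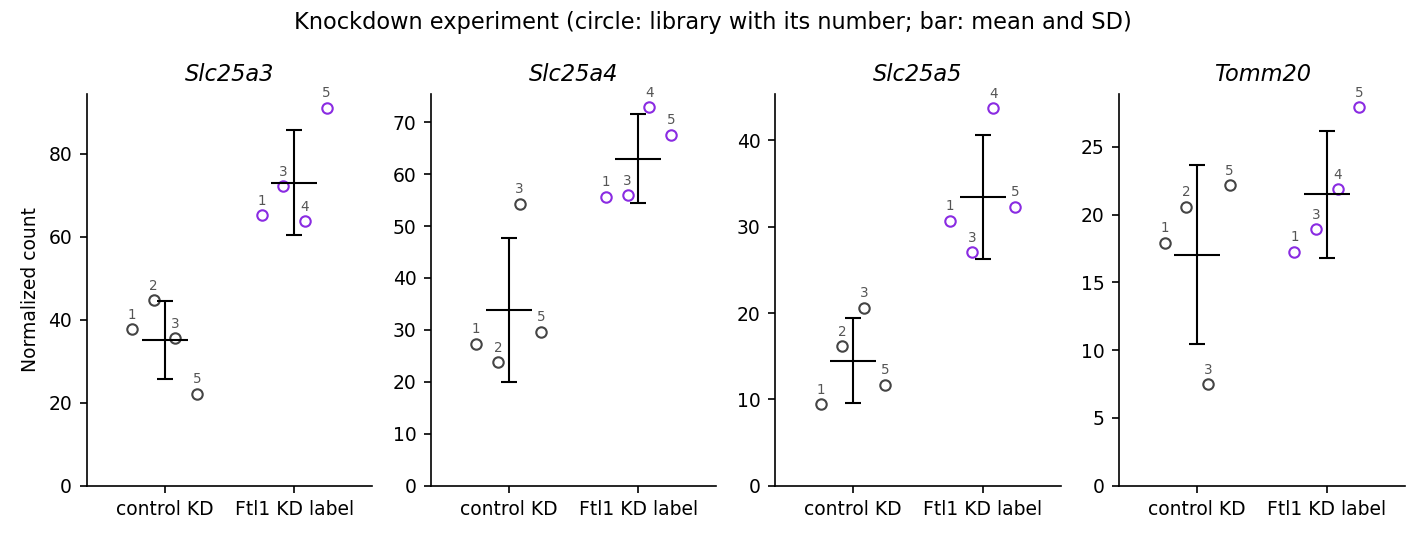
Normalized counts of Slc25a3, Slc25a4, Slc25a5 and, as a translocase, Tomm20 in each library of the knockdown experiment (circles, with the library number), with mean and SD. For the carriers every library labelled Ftl1 KD lies above every control, while Tomm20 ranges from 7.49 to 22.2 in controls and from 17.3 to 27.9 in labelled libraries.

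Other carriers did not pass. Some were tested only because of their level in 1 group: Slc25a1 averaged 9.15 in controls and 17.7 in labelled libraries and was tested, whereas Slc25a29, named after its values were seen, averaged 9.36 and 3.47 and was not. Directions over the carriers tested are therefore partly set by the filter. Slc25a1, the citrate carrier, had 6.61, 6.45, 16.9 and 6.69 in controls and 12.5, 18.0, 18.2 and 22.04 in labelled libraries (log2 fold change 0.97, SE 0.39, adjusted p = 0.0693), and without control library 3 its log2 fold change was 1.28 (adjusted p = 0.0167). Slc25a11 had 10.4, 13.3, 11.2 and 9.61 against 28.8, 21.7, 9.11 and 23.5 (log2 fold change 0.75, SE 0.36, adjusted p = 0.128). Slc25a39 had 3.78, 10.5, 13.1 and 9.20 against 12.5, 12.6, 9.11 and 13.2. The remaining 36 carriers were not tested, and their summed normalized counts were 67.3 to 82.4 in controls and 51.4 to 73.1 in labelled libraries, which overlap. Slc25a37 and Slc25a28 were at or under 4.44 in every library.

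Of the translocases, 3 could be tested and 0 passed. Tomm20 had 17.9, 20.6, 7.49 and 22.2 in controls and 17.3, 18.9, 21.9 and 27.9 in labelled libraries (log2 fold change 0.40, SE 0.34). Tomm40 had 18.9, 10.1, 11.2 and 10.5 against 6.71, 8.12, 10.9 and 17.6 (log2 fold change -0.25, SE 0.41). Timm13 had 11.3, 13.3, 20.6 and 8.78 against 7.67, 13.5, 9.11 and 20.6 (log2 fold change -0.11, SE 0.39). The other 21 translocases had summed normalized counts of 66.2 to 97.4 in controls and 89.3 to 110 in labelled libraries, which overlap. Tomm6 had 8.49, 6.05, 5.62 and 7.11 in controls and 1.92, 2.71, 1.82 and 5.88 in labelled libraries, which overlap, and was not tested.

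Within libraries, Slc25a3, Slc25a4 and Slc25a5 took 35.4%, 34.4%, 42.5% and 31.9% of carrier reads in controls and 47.9%, 45.6%, 55.3% and 57.0% in labelled libraries, with no overlap. Translocase reads per 100 carrier reads were 59.6, 44.8, 52.5 and 68.5 in controls and 44.9, 38.5, 40.2 and 47.4 in labelled libraries. With these 3 carriers left out of the denominator the ratios were 68.2 to 100.6 and 70.7 to 110, which overlap.

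Nuclear-retained, ribosomal and glial RNA differed between the knockdown groups too. Rn45s, the ribosomal RNA precursor, fell by 1.005 on the log2 scale, and its share of reads was 31.9% to 55.3% in controls and 30.3% to 34.5% in labelled libraries. Of 7 nuclear-retained RNAs, 4 could be tested and all 4 fell, with summed normalized counts of 619 to 1235 in controls and 219 to 322 in labelled libraries, and Malat1 alone had 250 to 572 against 77.9 to 143. Of 8 oligodendrocyte markers, 2 could be tested and both fell, with sums of 39.7 to 96.8 against 10.9 to 24.4 and Ermn at 0 in every library. Of 5 markers of oligodendrocyte precursors, 1 could be tested and did not pass, with sums of 2.09 to 16.9 against 17.3 to 30.97 and Pdgfra at 0 in controls. Of 8 neuronal markers, 5 could be tested, of which 1 rose and 1 fell, with sums of 193 to 294 against 224 to 237. Of 8 astrocyte markers, 3 could be tested and 1 rose, with sums of 39.3 to 74.6 against 70.3 to 85.2. Short genes were higher as a whole, with 68.2% of 409 genes of up to 2 kb at a positive value. The part of these in the carriers' difference was not tested.

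Of 22 further import genes, such as the presequence motor, peptidases and chaperones, 22 were tested in the aging experiment, with 0 called and 9 positive and 13 negative values. In the overexpression experiment 0 of 22 were called, with 9 positive and 13 negative values. In the knockdown experiment 3 could be tested and 2 rose: Hspd1, the matrix chaperonin, with a log2 fold change of 1.98 (SE 0.46, adjusted p = 0.00265), and Hspa9, the motor chaperone, with 1.33 (SE 0.41, adjusted p = 0.0175). Of 16 other transport genes of the mitochondrial membranes, 0 of 14 and 0 of 15 tested were called in the aging and overexpression experiments, and 2 of 8 in the knockdown experiment, both higher: Vdac1, the outer membrane pore, with 1.06 (SE 0.27, adjusted p = 0.00612), and Mtch2, an outer membrane insertase, with 1.10 (SE 0.38, adjusted p = 0.0357). The last share, 25%, lies near the 24.2% of all genes called in that comparison, and 3 import genes are too few to set against it. These 4 genes are named because they were called.

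Translocase reads per 100 carrier reads were 38.8, 41.6 and 35.2 in young and 48.1 and 42.1 in aged libraries, with no overlap but a gap smaller than the spread within either group.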

How the data were processed

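RNA of sorted neuronal nuclei was sequenced in 25 libraries. The authors used STAR for alignment to mm10, RSEM for counting and DESeq2 for normalization, and deposited 3 tables with a normalized count (a signal) per library and gene, each table scaled separately. The deposited columns of the authors' own comparison (mean, log2 fold change with its standard error, test statistic, p-value, adjusted p-value) were not used. Dividing by each library's smallest step returned whole reads for 100% of values (tolerance 0.01). Sources conflict on the library kit: Smart-seq2 in the study's methods, strand-specific polyA libraries in the sample records.

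Groups were compared with limma 3.58.1 (trend, R 4.3.3) on log2(normalized count + 1) for genes with a mean of at least 10, with Benjamini-Hochberg adjustment over all genes tested, at an adjusted p of 0.05, with a log2 fold change of at least 0.5 in size required in aging. A fold change on this scale understates that of low genes. Levels were compared between genes per kb of the principal transcript of GENCODE M21 (GRCm38, which is mm10). Alternatives were edgeR 4.0.16, DESeq2 1.42.0, TMM scaling, median centring, other pseudocounts and filters, a replicate block, reads without Rn45s as the scale, and leaving out each library. Exact permutation tests were two-sided. The models were tested on simulated data. Plots were drawn with matplotlib 3.10.9.

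Named were members past the threshold, otherwise up to 4 in each direction with the lowest p, the 3 highest translocases and carriers per kb in young libraries, and 14 members by role. Members and lists were chosen with earlier results of these data known. No molecular identifiers are described, so that reads are not independent molecules. In the knockdown experiment a normalized count of 1 stood for 0.534 to 2.48 reads.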

Additional observations from a re-analysis of the deposited data

Results flagged for a closer look

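In groups of 4 to 10 libraries, 28 sets of values of the named members were examined for a library far from the rest, and 2 were found, where chance alone gives about 1 in 20. Slc25a1 had a normalized count of 16.9 in control library 3 of the knockdown experiment, beside 6.45 to 6.69 in the other 3 controls, and Tomm40 had 18.9 in control library 1, beside 10.1 to 11.2. Both values rest on few reads (9 of Slc25a1 and 20 of Tomm40), and their origin was not tested.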

How the results depend on the processing

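Of the values with an alternative, those of the named members kept their direction and side of the threshold in 366 of 381 cases and the summaries in 146 of 157. DESeq2 called 1 member in aging (Slc25a51; 138 genes) and 1 in the overexpression experiment (Tomm6; 60 genes), and edgeR called 5 in the knockdown experiment, adding Slc25a1 and Slc25a11 to the 3 carriers. At a mean of at least 100, 0 members could be tested in the knockdown experiment. Without a filter the knockdown carriers' median was -0.012 (37 carriers), beside -0.122 for all genes. With the filter, the carriers' median was 0.97 with edgeR and 0.96 with DESeq2. Leaving out 1 library gave medians of 0.093 to 0.272 for translocases in aging (highest without aged library 2) and of 0.56 to 0.87 for carriers in the knockdown experiment, and 3 to 4 members past the threshold there. Without control library 5, 235 genes were called there in all. Timm13 in the knockdown experiment changed sign with edgeR (0.025), DESeq2 (0.002) and the block (0.021), and ranged from -0.36 to 0.10 without 1 library. Slc25a29 in aging ranged from -0.10 to 1.52 without 1 library, and Slc25a15 in the overexpression experiment was -0.59 in the 7 libraries with the most genes detected, an alternative chosen after seeing the data. The cause was not tested. Knockdown depth limits translocases to 3 testable genes.

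Deviations of same-numbered libraries correlated at -0.05 and 0.02 in aging and at -0.03, -0.02 and -0.05 in the knockdown experiment. The deviations of the aged libraries mirror each other by construction, and the knockdown libraries are shallow. These correlations therefore cannot decide whether replicate numbers pair the libraries. With a replicate block 1 member, Slc25a3, was past the threshold in the knockdown experiment, where 173 genes were called, beside 354 without it. Slc25a4 had 0.73 (adjusted p = 0.15) and Slc25a5 1.12 (adjusted p = 0.0612) with the block, which leaves out unpaired numbers. In aging 0 members were past it. No paired analysis was possible in the overexpression experiment because its titles carry no shared numbers.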
